A study of Mus musculus with 144 samples.

Results

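After optic nerve crush, a minority of the retinal Iba1-EGFP cells carried high transcript levels of interferon-stimulated genes. The cells described here were chosen by a rule on 8 such genes, Ifit1, Ifit2, Ifit3, Isg15, Rsad2, Usp18, Oasl2 and Rtp4. A cell collected after crush was interferon-high when at least 3 of the 8 reached 20 FPKM (fragments per kilobase of exon and 1e+06 assigned reads), and interferon-low otherwise. The rule put 17 of the 90 cells of day 2 and day 4 in the interferon-high group and 73 in the interferon-low group, out of 144 cells in the series.

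The study sorted single cells by fluorescence from retinas of 16-week-old Iba1-EGFP mice, in which a green reporter marks cells expressing Iba1, which microglia share with other macrophages. It sequenced 1 library per cell, at day 2 and day 4 after crush of the optic nerve and from untreated retinas, and the series title centres on Gpr84, Tnf and Il1a. Every group carries the same reporter, and the labels call every cell a microglial cell. No animal is named in the labels. Each time point is therefore 1 sample, cells are not replicates of it, and values are described with no test. The interferon-high cells comprised 6 of the 54 cells of day 2 and 11 of the 36 cells of day 4. The interferon-low cells comprised the other 48 and 25.

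Interferons are secreted proteins that cells release when they sense viral or misplaced nucleic acid. Type I interferons bind the receptor chains Ifnar1 and Ifnar2, whose kinases Jak1 and Tyk2 activate a transcription factor complex that contains Stat2 and Irf9. It binds the interferon-stimulated response element in promoters and turns on antiviral genes. Interferon gamma acts through Ifngr1 and Ifngr2 and mainly at gamma-activated sites. Of the rule genes, Ifit1, Ifit2 and Ifit3 encode proteins that bind viral RNA or each other, Isg15 a ubiquitin-like modifier and Usp18 the protease that removes it and damps receptor signalling. Rsad2 encodes viperin, which makes a chain-terminating nucleotide, Oasl2 a member of the oligoadenylate synthetase family and Rtp4 a negative regulator of the interferon response in mice. Microglia with such a profile are known from injured, ageing and virus-exposed mouse brain.

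The promoters below are of 2 rule genes and of the 3 interferon genes outside the rule with the largest difference between the groups, and are shown because they hold, or lack, the element through which type I interferon acts. Each is the RefSeq sequence (GRCm38.p6) of the 250 bases before the annotated start, 5′ to 3′ on the gene's strand. Capitals mark every match to the motif searched, GAAA followed by any 2 bases and GAAA again, on either strand (on the other strand it reads TTTC, any 2 bases, TTTC), and neighbouring matches can overlap. Isg15 lies at chr4:156200819-156201068 on the minus strand, Ifit3 at chr19:34583279-34583528 on the plus strand, Oas1a at chr5:120907526-120907775 on the minus strand, Ifi207 at chr1:173741810-173742059 on the minus strand and Irf7 at chr7:141266425-141266674 on the minus strand. Rtp4 is named only.
Isg15: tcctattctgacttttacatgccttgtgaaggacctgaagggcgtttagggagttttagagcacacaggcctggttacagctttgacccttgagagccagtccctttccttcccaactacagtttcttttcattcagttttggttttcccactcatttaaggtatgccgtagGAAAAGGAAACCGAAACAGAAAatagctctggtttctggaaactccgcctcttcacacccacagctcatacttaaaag
Ifit3: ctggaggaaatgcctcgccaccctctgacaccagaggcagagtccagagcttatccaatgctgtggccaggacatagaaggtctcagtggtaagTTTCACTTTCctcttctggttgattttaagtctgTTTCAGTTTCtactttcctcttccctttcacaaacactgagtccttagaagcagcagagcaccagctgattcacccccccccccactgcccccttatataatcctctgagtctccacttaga
Oas1a: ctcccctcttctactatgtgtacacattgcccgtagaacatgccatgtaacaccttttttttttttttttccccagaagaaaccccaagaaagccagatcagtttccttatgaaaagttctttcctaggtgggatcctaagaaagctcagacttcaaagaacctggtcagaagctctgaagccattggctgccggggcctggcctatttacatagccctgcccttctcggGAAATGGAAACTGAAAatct
Ifi207: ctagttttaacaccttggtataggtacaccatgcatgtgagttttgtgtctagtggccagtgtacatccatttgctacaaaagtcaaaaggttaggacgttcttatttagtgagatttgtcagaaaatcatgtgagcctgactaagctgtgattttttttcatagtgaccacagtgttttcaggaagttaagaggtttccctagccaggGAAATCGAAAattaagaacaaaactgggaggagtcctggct
Irf7: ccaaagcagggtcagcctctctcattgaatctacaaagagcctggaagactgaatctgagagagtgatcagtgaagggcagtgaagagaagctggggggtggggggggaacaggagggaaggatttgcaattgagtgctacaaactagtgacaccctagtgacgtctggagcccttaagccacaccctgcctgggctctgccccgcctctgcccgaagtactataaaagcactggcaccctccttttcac
The Isg15 promoter held 3 overlapping matches that begin 78, 72 and 66 bases before the start, and the Ifit3 promoter 2, at 156 and 122 bases. The Oas1a promoter held 2, at 20 and 14 bases, the Ifi207 promoter 1, at 41 bases, and the Irf7 window none, which says only that these letters are not in it.

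Over windows of 300 bases, from 250 before to 50 after the start, 3.49% of the 27025 promoters in the RefSeq table held this motif. It was present in 4 of the 6 rule genes with an entry: Ifit1, Ifit3, Isg15 and Rsad2. Among interferon genes outside the rule it stood in 26 of 56 promoters (46.4%) of genes called higher in interferon-high cells, by the call defined below, and in 9 of 31 (29%) of those not called. Genes called higher that are on no list of this work held it in 24 of 652 promoters (3.68%), close to the share of all promoters. The gamma-activated site, searched as TTC, any 3 bases and GAA, which reads the same on both strands and can share bases with the other motif, was in 19.6% of the interferon genes called higher, 19.4% of those not called and 8.47% of all promoters.

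The rule was met by 2 of 54 untreated cells (3.70%, exact Clopper-Pearson 95% interval 0.452 to 12.7%). At day 2 it was met by 6 of 54 (11.1%, interval 4.19 to 22.6%), and at day 4 by 11 of 36 (30.6%, interval 16.3 to 48.1%). The intervals cover counting error only, and those of day 2 and day 4 overlap. The 3 plates held 0, 1 and 1 such cells of 18 untreated cells each, where the exact interval for 0 of 18 reaches 18.5%. They held 1, 2 and 3 of 18 each at day 2, and 2, 6 and 3 of 12 each at day 4. Plate 2 at day 4 alone gave 6 of the 17 cells.

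**Figure D1:**
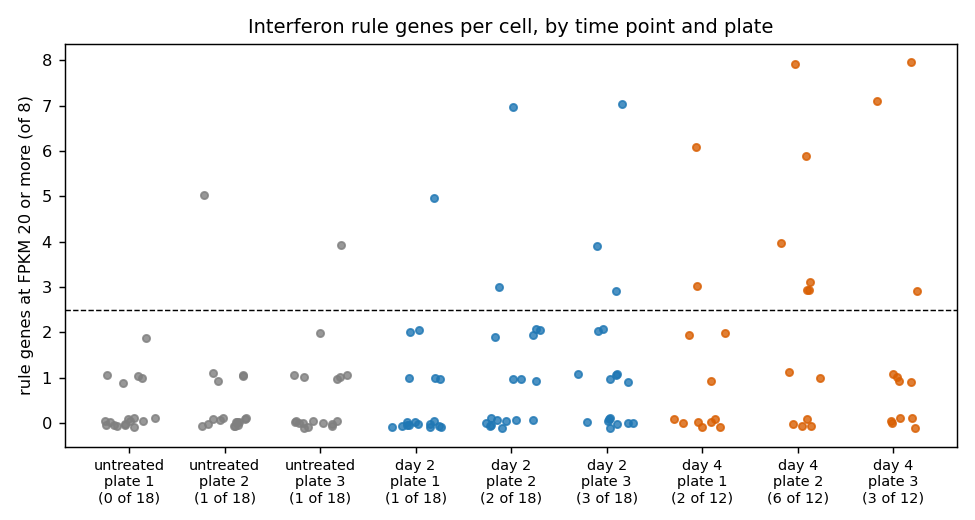
Each point is 1 cell, placed by its number of rule genes at 20 FPKM or more (y axis, of 8) and by time point and plate (x axis), with a small random shift for legibility. The dashed line separates cells with at least 3 rule genes, whose number is printed under each plate; they number 17 after crush and 2 in untreated retinas.

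The values that chose the cells are given as a description. Isg15 was at a lowest, median and highest of 0, 177 and 1829 FPKM in the 17 interferon-high cells, against 0, 0.819 and 2297 FPKM in the 73 interferon-low cells. Rtp4 was at 0, 221 and 843 FPKM in interferon-high cells, against 0, 0.982 and 1488 FPKM in interferon-low cells. Usp18 was at 0, 91.4 and 1014 FPKM in interferon-high cells, against 0, 0.319 and 143 FPKM in interferon-low cells. No single rule gene separated the groups, since each of these ranges overlapped.

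Ifit3 was at 0, 107 and 3699 FPKM in interferon-high cells, against 0, 1.06 and 3313 FPKM in interferon-low cells. At 20 FPKM or more, Isg15 and Rtp4 each stood in 15 of 17 interferon-high cells, Usp18 in 14, Oasl2 in 11, Ifit3 in 10, Ifit2 in 8, and Ifit1 and Rsad2 in 5 each. Ifit1 and Rsad2 were the most restricted rule genes: 0 of 73 interferon-low cells reached that level for either, which allows a share of up to 4.11% (3 counts of the total). Rtp4 was the least restricted, with 11 of 73 interferon-low cells at 20 FPKM or more. The rule uses this same level, so it holds these counts down in interferon-low cells, and they only describe the selection. The cells differed in how much of the set they carried. At day 4, 2 cells had all 8 rule genes, 1 had 7 and 2 had 6, and at day 2, 2 cells had 7.

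Just inside the rule, 7 cells had exactly 3 rule genes, with their 3rd highest rule gene between 21.7 and 91.4 FPKM. Just outside it, 10 cells had exactly 2, with their 3rd highest rule gene between 0.107 and 19 FPKM. Of the other interferon-low cells, 18 had 1 and 45 had none.

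All 17 interferon-high cells and 72 of 73 interferon-low cells had at least 3 of 10 microglia markers at 20 FPKM or more. Markers of other cells were not equally shared. At least 3 of 8 border macrophage markers (Mrc1, Pf4, Cd163, Lyve1, F13a1, Ms4a7, Cbr2 and Clec10a, genes of macrophages at the meninges and vessels) reached 20 FPKM in 5 of 17 interferon-high cells and 5 of 73 interferon-low cells, and in 6 of 54 untreated cells. The summed level of the 8 ran from 0.0395 to 5748 FPKM in interferon-high cells and from 0 to 6174 FPKM in interferon-low cells, and Cbr2 was at 0 in all interferon-high cells. At least 3 of 8 monocyte markers were found in 1 interferon-high and 0 interferon-low cells, and Vcan was at 0 in all interferon-high cells. The Mueller glia list, which holds Apoe, was passed by 3 interferon-high and 10 interferon-low cells, and the rod photoreceptor list by 1 and 1. Any list other than that of microglia was passed by 8 of 17 interferon-high and 15 of 73 interferon-low cells. No interferon-high cell passed for neutrophil, T and NK, B, astrocyte, retinal neuron or endothelial lists, and Cd3e, Cd79a and Ly6g were at 0 in all 17. The part of these cells in the results is given by day below.

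Interferon-high cells were also richer in detected genes. They had a median of 4443 genes at 1 FPKM or more (2506 to 7097), against 3513 (1071 to 7872) in interferon-low cells, and, with M for 1e+06, a median of 7.79 M assigned reads (2.33 to 18.9 M), against 5.29 M (0.190 to 15.6 M). Thinned to 2 M reads and counting genes with at least 5 reads, the medians were 4183 in the 17 interferon-high cells and 3372 in 64 interferon-low cells, with 0 and 9 shallower cells left out. Pooled over plates, the gap in detected genes therefore stood at equal depth. Within plate and day, before thinning, the interferon-high median was the higher one, except in plate 3 at day 2 (3949 against 4091 genes). Each such comparison rests on 1 to 6 interferon-high cells. Over all measured genes the median difference in mean log2(FPKM + 1), interferon-high minus interferon-low, was 0.34 and not 0, and differences below are read beside it.

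Most interferon genes outside the rule were higher in the interferon-high cells. A gene was called higher when its difference in mean log2(FPKM + 1) was at least 1, which is 2-fold in that scale, and positive in each of the 3 plates; it was called lower when the difference was -1 or less and negative in each plate. Of the 9676 genes measured (1 FPKM or more in at least 10% of the 90 cells, rule genes left out), 11.4% were called higher and 0.372% lower, 1105 and 36 genes. The counts of each list below are read beside these shares. Of the 147 interferon genes outside the rule that were listed, 108 were measured, of which 69 were called higher (63.9%) and 2 lower. Their median difference was 1.79, with 1.77, 1.48 and 1.6 in the 3 plates and 1.71 and 1.58 at day 2 and day 4, and 103 of 108 were positive, against 7206 of 9676 over all measured genes. Since these genes are induced together with the rule genes and were read in the same cells, these figures describe the 17 cells and test nothing.

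The number of detected genes moved with the groups, and the differences were also computed with it as a covariate. With detected genes as a covariate, the median difference of the 108 genes was 1.35 and 58 of 108 were called higher (53.7%), against 4.74% of all measured genes. Over all genes, calls with that covariate numbered 459 higher and 255 lower, against 1105 and 36 without it. The covariate comes from the same libraries and itself counts interferon genes. How far detection enters the differences was therefore not tested. Without the 10 cells with at least 3 border macrophage markers, the median of the 108 genes was 1.67. Leaving out every cell with at least 3 markers of any other type, which kept 9 interferon-high cells, gave 1.29 with 36 of 108 called higher. Over all measured genes, 988 were called higher in that setting.

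**Figure D2:**
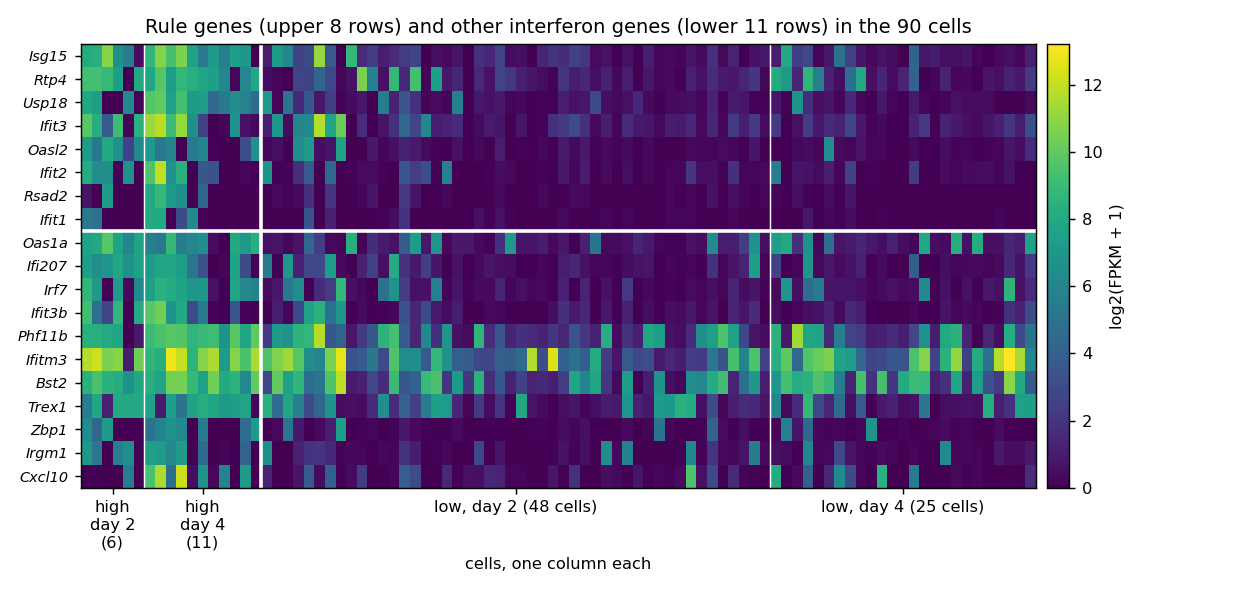
Colour shows log2(FPKM + 1) in each of the 90 cells (columns) for the 8 rule genes (upper rows) and 11 other interferon genes (lower rows); the 17 interferon-high cells are left of the thick line, the 73 interferon-low cells right of it, each split by day and ordered by number of rule genes. Isg15 and Rtp4 are high in 15 of 17 interferon-high cells, and Oas1a, Bst2 and Ifitm3 are bright there and also in some interferon-low cells.

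Antiviral effectors formed the largest group, with 36 of 53 measured members called higher, 0 lower and a median difference of 1.95. Oas1a, which makes the oligoadenylates that activate RNase L, was at 0, 146 and 837 FPKM (lowest, median, highest) in interferon-high cells, against 0.0691, 0.811 and 324 FPKM in interferon-low cells. Its difference was 4.24, and it reached 20 FPKM in 15 of 17 interferon-high and 15 of 73 interferon-low cells. Ifitm3, a membrane protein that blocks viral entry, was at 0.979, 1716 and 7579 FPKM in interferon-high cells, against 0.711, 35.4 and 9503 FPKM in interferon-low cells, a difference of 3.71. Bst2 (tetherin), which holds budding virus at the cell surface, was at 78.2, 344 and 1422 FPKM in interferon-high cells, against 0, 31.9 and 3863 FPKM in interferon-low cells. It passed 20 FPKM in 17 of 17 interferon-high and 39 of 73 interferon-low cells, so it was present in all cells of the first group and in many of the second.

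Ifit3b (3.79), Oas1g (3.79), Phf11b (3.77) and Phf11a (3.52) also had large differences. They have close copies, and 57.1% to 84.4% of their values above 0 were not whole reads, so the split of reads between the copies, Ifit3 and Oas1a included, is uncertain. Ifi27, in contrast, had a difference of -0.87 and was not called.

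All 9 measured members of the HIN-200 family, nuclear and cytosolic DNA-binding proteins encoded in 1 cluster on chromosome 1, were positive, and 8 were called higher with a median of 2.40. Ifi207 was at 0, 118 and 238 FPKM in interferon-high cells, against 0, 0.376 and 275 FPKM in interferon-low cells, a difference of 4.22. All 6 interferon-high cells of day 2 had it at 95.7 FPKM or more. Ifi209 (3.54) and Ifi211 (3.24) followed, and reads of this family can be shared between its near-identical members.

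Of the guanylate-binding proteins and immunity-related GTPases, which attack vacuoles of intracellular microbes, 8 of 10 measured were called higher with a median of 1.56. Igtp had a difference of 2.75, and Irgm1 was at 0.0298, 22.1 and 177 FPKM in interferon-high cells, against 0, 0.185 and 94.6 FPKM in interferon-low cells (2.66). Gbp3 reached 20 FPKM in 5 of 17 interferon-high and 1 of 73 interferon-low cells. In the ISG15 conjugation and ADP-ribosylation list, 6 of 11 were called higher with a median of 1.80, among them Herc6, the mouse ligase for ISG15 (1.99), Trim25, a ubiquitin ligase of RNA sensing (1.98), and Parp14, an ADP-ribosyltransferase (1.81).

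Sensors and transcription factors were less uniform. Of 15 measured sensors and adaptors, 7 were called higher and 1 lower, with a median of 0.66. Trex1, the exonuclease that clears cytosolic DNA, was at 0.176, 197 and 297 FPKM in interferon-high cells, against 0, 1.73 and 439 FPKM in interferon-low cells (3.32). Zbp1, a sensor of Z-form nucleic acid, differed by 2.80, and the RNA sensors Ifih1 (MDA5), Dhx58 (LGP2) and Ddx58 (RIG-I) by 2.63, 2.15 and 1.39. The member called lower was Irf3, the factor that turns on interferon beta after sensing, at -1.11.

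Of 10 measured transcription factors, 4 were called higher and 1 lower. Irf7, which amplifies type I interferon production, was at 0, 125 and 421 FPKM in interferon-high cells, against 0, 0.479 and 429 FPKM in interferon-low cells. Its difference was 4.22, with 13 of 17 interferon-high and 11 of 73 interferon-low cells at 20 FPKM or more. Stat2 differed by 1.31. Irf1, the main early target of interferon gamma, was called lower at -1.13, but with -2.84 at day 2 and 0.56 at day 4. Of the 150 named genes, 50 overlap exons of other rows of the table, among them Usp18, Rtp4, Irf7, Trex1, Cxcl10 and P2ry12, and may share reads with them, since counting by strand is not stated.

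As a list, the machinery that receives interferon differed little. The 7 measured receptor chains and kinases had a median difference of 0.46, near the 0.34 of all measured genes. Of them 1 was called higher (14.3%, against 11.4% of all measured genes). Ifnar1 and Ifnar2 differed by 0.28 and 0.82, Ifngr1 and Ifngr2 by -0.98 and -0.09, and Jak1 and Tyk2 by 0.57 and 0.46. Single members varied more. Ifnar2 was at 1.04 at day 2 and 1.19 at day 4, and Ifngr1 at -1.95 and -0.01. In the 3 plates Ifngr1 was at -2.50, -1.82 and 0.13. The called gene was Il10rb (1.82), a chain shared by the interleukin-10 and interferon lambda receptors, whose exons, like those of Ifnar2, overlap the row Gm21970. Of 5 measured inhibitors, Socs3 and Ptpn6 among them, 0 were called in either direction, with a median of 0.45.

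Interferon transcripts themselves reached 20 FPKM in 1 cell. None of 21 ligand genes was measured by the rule on 10% of cells, and 19 were at 0 in all 90 cells. Ifnb1, interferon beta, stood at 178.7 FPKM in 1 interferon-high cell of day 4 on plate 2, a value of about 1073 reads, while no other cell of the series passed 1.27 FPKM. That cell had all 8 rule genes at 20 FPKM or more, with Ifit3 at 2415 FPKM, Cxcl10 at 687 FPKM, Ccl2 at 1612 FPKM and Il1a at 1964 FPKM. Its mean over the 108 interferon genes was 4.74, the second highest of the 90 cells. Wells that share its plate column held at most 0.151 FPKM of Ifnb1.

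The interferon genes outside the rule were higher the more rule genes a cell had. Averaged over the 108 genes, log2(FPKM + 1) had a median of 3.20 (1.55 to 5.32) in interferon-high cells and 1.66 (0.44 to 3.13) in interferon-low cells. Of the 17 interferon-high cells, 10 lay above the highest interferon-low cell, and 0 of 73 interferon-low cells lay above the interferon-high median. The ranges still overlapped, with 40 of 73 interferon-low cells at or above the lowest interferon-high cell. The group means were 1.40 in the 45 cells with no rule gene, 1.88 in the 18 with 1, 2.27 in the 10 with 2, 2.37 in the 7 with 3 and 4.07 in the 10 with 4 or more. Cells with 2 and with 3 rule genes thus overlapped almost fully (1.36 to 2.87 and 1.55 to 3.01), and the widest step in these means lay between cells with 3 and cells with 4 or more. That last group pools 4 to 8 rule genes, which widens the step. Its mean was 3.46 in the 3 cells with 4 or 5 and 4.33 in the 7 with 6 to 8.

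Across the 90 cells, Spearman's rho was 0.68 between the number of rule genes and this mean, 0.47 between the number of rule genes and detected genes, and 0.79 between detected genes and the mean. All 3 measures come from the same libraries and share their depth. With at least 4 rule genes required, the median difference of the 108 genes was 2.47, and with at least 2 it was 1.40.

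**Figure D3:**
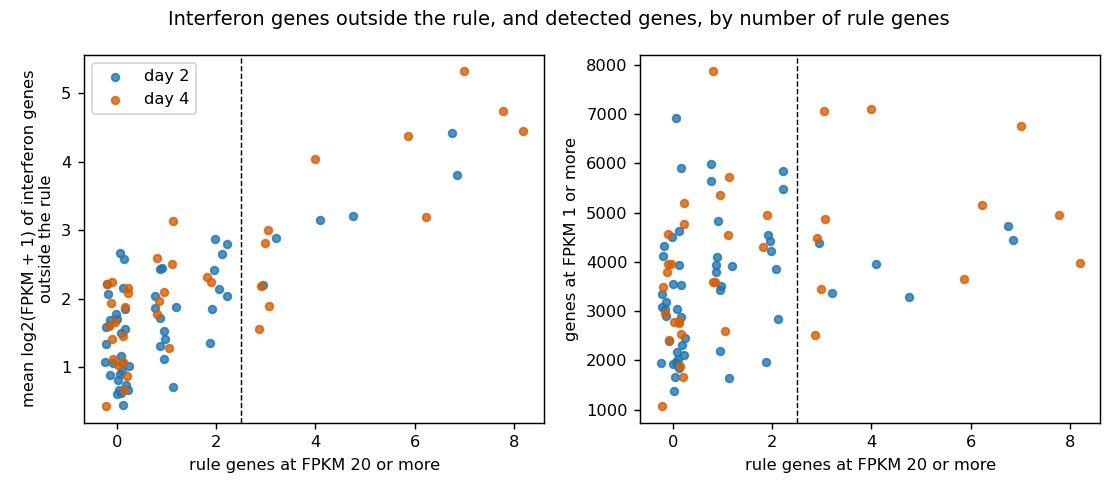
Each point is 1 of the 90 cells after crush, blue for day 2 and orange for day 4, by its number of rule genes at 20 FPKM or more (x axis, with a small random shift). The left y axis is the mean log2(FPKM + 1) of 108 interferon genes outside the rule, and the right y axis the number of genes at 1 FPKM or more; the dashed line marks the rule. Cells with 4 or more rule genes average 4.07 on the left, and cells with none 1.40.

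Antigen presentation through MHC class I was higher too, with 12 of 22 measured members called higher, 0 lower and a median of 1.40. That is 54.5% called higher, against 11.4% of all measured genes. Psme2, a subunit of the proteasome activator PA28, was at 55.6, 224 and 878 FPKM in interferon-high cells, against 0.0463, 15.4 and 2587 FPKM in interferon-low cells. It passed 20 FPKM in 17 of 17 interferon-high and 36 of 73 interferon-low cells, a difference of 2.92. The peptide transporter genes Tap1 and Tap2 differed by 2.01 and 1.83. H2-T23 (2.43) has near-identical relatives, and 95.8% of its values were not whole reads. B2m, the invariant light chain, did not differ in this way (-0.05), and it passed 20 FPKM in 17 of 17 interferon-high and 73 of 73 interferon-low cells.

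Of 11 measured chemokines, 7 were called higher (63.6%, against 11.4% of all measured genes), with a median of 1.89. Ccl2, which attracts monocytes, was at 0.708, 190 and 3692 FPKM in interferon-high cells, against 0, 4.72 and 5169 FPKM in interferon-low cells (3.37). Its neighbours Ccl7 and Ccl12 differed by 3.42 and 2.50. Among cells without 3 border macrophage markers (12 interferon-high and 68 interferon-low), Ccl7 differed by 1.27 and Ccl2 by 3.61. Cxcl10, the interferon-induced ligand of Cxcr3, was at 0, 0.381 and 4720 FPKM in interferon-high cells, against 0, 0.161 and 752 FPKM in interferon-low cells, with 8 of 17 and 5 of 73 cells at 20 FPKM or more. Cxcl10 was split among the interferon-high cells, with 8 at 20 FPKM or more and the other 9 under 1 FPKM.

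Programmes not tied to interferon were counted in the same way. Glycolysis genes had a median of 1.82, with 9 of 13 called higher, among them Pgam1 (3.17) and Ldha (2.19). Complement and phagocytosis genes had 6 of 14 called higher and a median of 0.96, and immediate-early and stress genes 7 of 21 and 0.89. Of 22 measured proliferation genes, 3 (13.6%) were called higher, close to the 11.4% of all measured genes: Mcm3 (3.02), Hmgb2 (2.20) and Pcna (1.91). The list's median was 1.92 in plate 2 but -0.05 and 0.01 in plates 1 and 3. At least 3 proliferation genes reached 20 FPKM in 16 of 17 interferon-high and 40 of 73 interferon-low cells, and the mitotic genes Mki67 and Top2a differed by 0.24 and 0.91 and were not called. How far the larger number of detected genes enters these lists was not tested list by list.

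**Figure D4:**
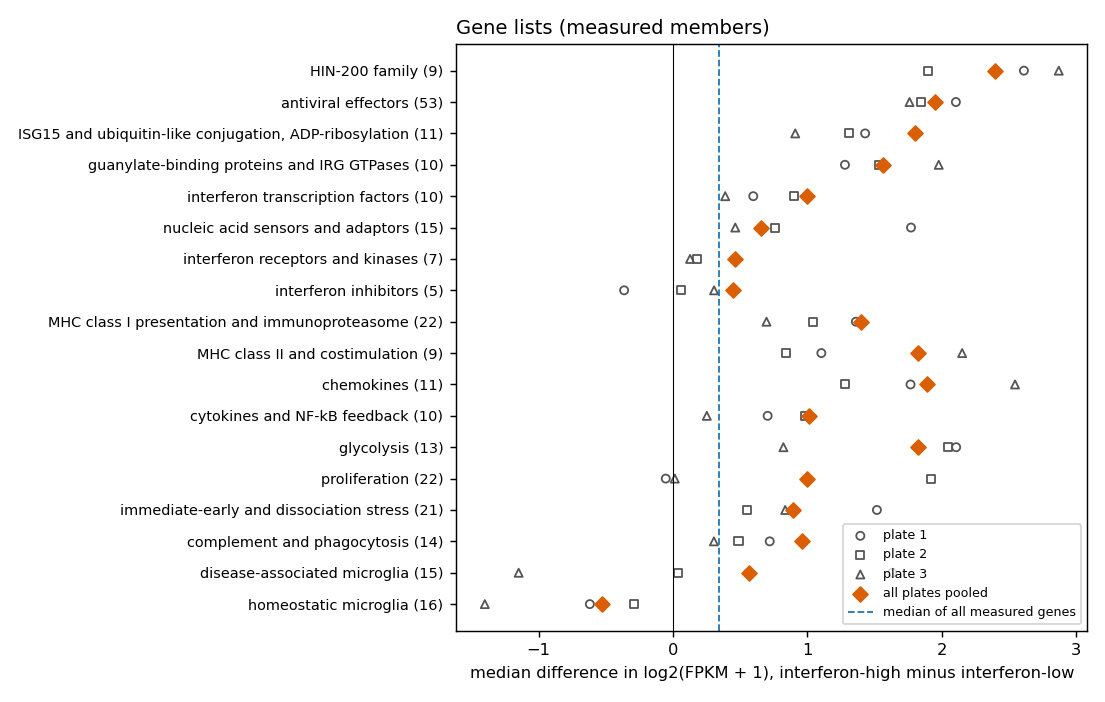
For each gene list (y axis, with its number of measured members) the orange diamond is the median difference in log2(FPKM + 1), interferon-high minus interferon-low, and the open symbols are the medians within plates 1, 2 and 3. The dashed line is the median of all measured genes, 0.34; the HIN-200 family lies furthest right at 2.40 and of the lists plotted, the homeostatic list is the one with a pooled median under 0, at -0.53.

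The interferon genes outside the rule had like median differences on both days, but other genes of the interferon-high cells did not. At day 2 the interferon-high cells shared Ms4a7, a gene of border macrophages, and part of them held further markers of those cells. Ms4a7 was at a lowest, median and highest of 91.5, 246 and 432 FPKM in interferon-high cells of day 2, against 0, 0.297 and 263 FPKM in interferon-low cells of day 2. It reached 20 FPKM in 6 of 6 interferon-high and 4 of 48 interferon-low cells. Apoe, the lipid carrier, was at 178, 39823 and 53884 FPKM in interferon-high cells of day 2, against 5.73, 76.1 and 40352 FPKM in interferon-low cells, and exceeded 20000 FPKM in 5 of the 6. By the count of at least 3 of 8 border macrophage markers, 3 of 6 interferon-high and 5 of 48 interferon-low cells of day 2 qualified. Mrc1 and Pf4 each reached 20 FPKM in 3 of the 6, and the other 3 cells had 1, 1 and 2 of the 8 markers at that level.

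Some genes of resting microglia were lower in these cells, and not in each of them. P2ry12, the ADP receptor that guides microglial processes, was at 1.30, 45.1 and 138 FPKM in interferon-high cells of day 2, against 7.20, 500 and 2842 FPKM in interferon-low cells. Sparc, a secreted matrix protein made by resting microglia, was at 2.41, 7.37 and 325 FPKM in interferon-high cells, against 11, 951 and 3517 FPKM in interferon-low cells, with 1 of 6 and 45 of 48 cells at 20 FPKM or more. Both were called lower over the 2 days (-1.05 and -2.06), yet at day 4 alone their differences were 0.96 and 0.30. Tmem119, a microglial surface gene, reached 20 FPKM in 3 of 6 interferon-high and 41 of 48 interferon-low cells of day 2, and P2ry12 in 3 of 6 and 41 of 48. The homeostatic list had a median difference of -1.94 at day 2, while its members Fcrls and P2ry13 were positive there (3.03 and 1.04). MHC class II genes, which present antigen to helper T cells, had a median of 4.19 there, with Cd74 at 0.379, 10221 and 37184 FPKM in interferon-high cells, against 0.505, 41.2 and 28765 FPKM in interferon-low cells.

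At day 4 the 11 interferon-high cells had P2ry12 at 55.2, 288 and 676 FPKM, against 3.45, 201 and 1229 FPKM in the 25 interferon-low cells, and all 11 passed 20 FPKM, against 19 of 25. Ms4a7 reached 20 FPKM in 2 of 11 interferon-high and 0 of 25 interferon-low cells, and Apoe exceeded 20000 FPKM in 0 of 11 interferon-high cells. The homeostatic list had a median difference of 0.49 and the MHC class II list one of 0.23, close to the 0.33 of all measured genes at that day. Cxcl10 reached 20 FPKM in 7 of 11 interferon-high and 4 of 25 interferon-low cells of day 4, and in 1 of 6 interferon-high and 1 of 48 interferon-low cells of day 2. Its difference was 3.77 at day 4 and -0.02 at day 2.

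As a list the interferon genes did not follow this split, although single ones did, such as Igtp, with a difference of 3.74 at day 4 and 0.03 at day 2. Oas1a was at 62.8, 208 and 837 FPKM in the 6 interferon-high cells of day 2 and at 0, 67.3 and 451 FPKM in the 11 of day 4, against medians of 0.737 and 1.10 FPKM in interferon-low cells of the 2 days. Among cells without 3 border macrophage markers, the median difference of the 108 interferon genes was 1.80 at day 2 (3 interferon-high and 43 interferon-low cells) and 1.41 at day 4 (9 and 25). The day 2 cells among these still had low P2ry12, with a difference of -4.94, and high Apoe, at 5.52. With 6 cells on one side and 11 on the other, the contrast between days was not tested.

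**Figure D5:**
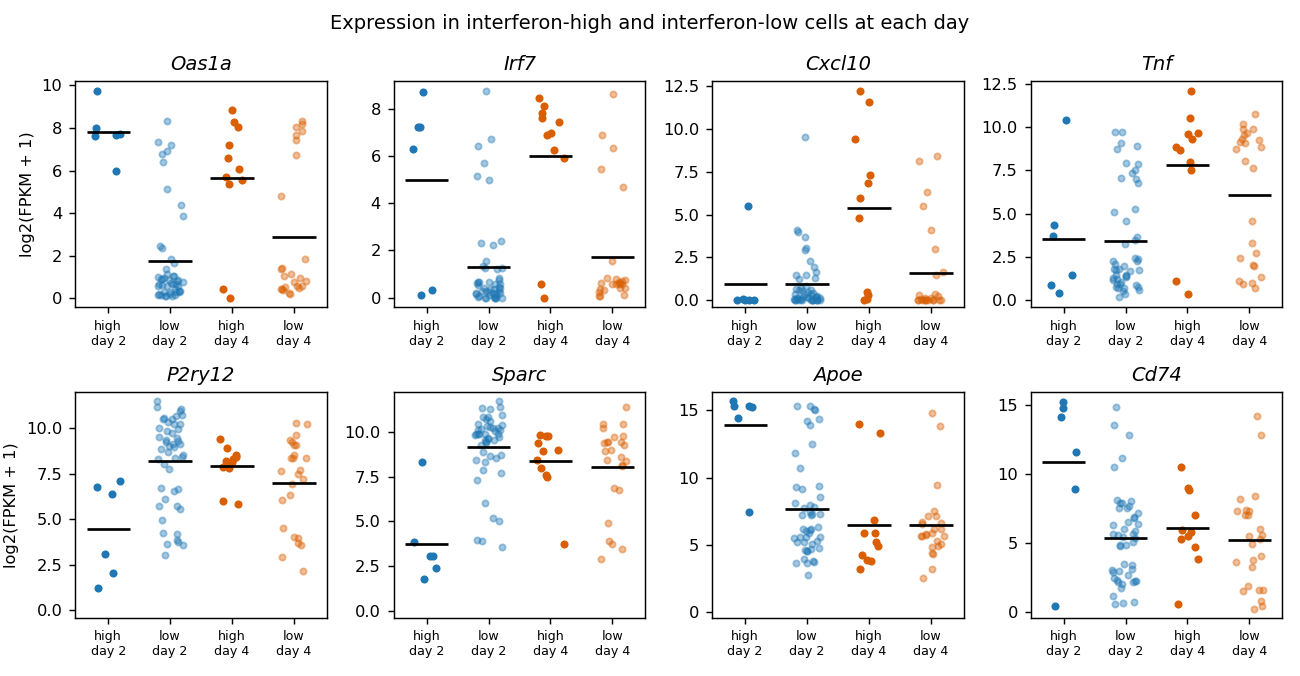
Each panel shows log2(FPKM + 1) of 1 gene (y axis, scales differ) in interferon-high and interferon-low cells of day 2 (blue) and of day 4 (orange); points are cells and bars are means. Oas1a and Irf7 are higher in interferon-high cells on both days; Cxcl10 is so at day 4 (difference 3.77), whereas P2ry12 and Sparc are lower and Apoe and Cd74 higher at day 2 (differences -3.72, -5.43, 6.27 and 5.42).

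Counted by cells at 20 FPKM or more, the genes of the series title followed the day as well. Tnf reached 20 FPKM in 9 of 11 interferon-high and 15 of 25 interferon-low cells of day 4, and in 1 of 6 interferon-high and 15 of 48 interferon-low cells of day 2. Gpr84 did so in 9 of 11 and 16 of 25 cells of day 4, and in 0 of 6 and 21 of 48 cells of day 2, where 0 of 6 allows a share of up to 50%. Il1a did so in 9 of 11 interferon-high and 17 of 25 interferon-low cells of day 4, and in 1 of 6 and 29 of 48 cells of day 2. Over both days the differences were 1.97 for Tnf, 0.40 for Gpr84 and -0.25 for Il1a, none of them called, with Tnf at -0.03 in plate 3. At day 2 and day 4 they were 0.13 and 1.70 for Tnf, -3.09 and 1.42 for Gpr84, and -3.11 and 0.70 for Il1a. Among cells without 3 border macrophage markers, Tnf differed by 1.85 at day 2, with 3 interferon-high cells, and by 3.28 at day 4. There Gpr84 differed by -3.29 and 1.20, and Il1a by -2.56 and 1.39.

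Of the 1105 genes called higher, 976 were on no list. Ribosomal protein genes and names of predicted genes, pseudogenes or clones were left out of their ranking. The largest differences among the rest were Sap30 (3.95), a subunit of the Sin3 histone deacetylase complex, Cops6 (3.48), a subunit of the COP9 signalosome, and Pigs (3.19), of the enzyme that attaches lipid anchors to proteins. Slc3a2, the heavy chain of amino acid transporters, was at 28, 128 and 431 FPKM in interferon-high cells, against 0, 16.4 and 411 FPKM in interferon-low cells (2.91), and passed 20 FPKM in 17 of 17 and 36 of 73 cells. Ch25h, the antiviral enzyme that makes 25-hydroxycholesterol and is itself induced by interferon, reached 20 FPKM in 7 of 17 interferon-high and 2 of 73 interferon-low cells (2.76). The activating Fc receptor Fcgr4 differed by 2.68 and Cd72 by 3.04, and the exons of Cd72, Cops6 and Ch25h overlap other rows of the table.

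With the same names left out, Adgrg1 stood first among the 36 genes called lower. This adhesion receptor of microglia (GPR56) was at 0, 0.227 and 3.02 FPKM in interferon-high cells, against 0, 3.87 and 476 FPKM in interferon-low cells. It reached 20 FPKM in 0 of 17 interferon-high cells, which allows a share of up to 17.6%, and in 29 of 73 interferon-low cells. Its difference was -2.75, with -2.12, -3.24 and -3.08 in the plates and -3.14 and -2.25 at day 2 and day 4, so it held on both days, unlike P2ry12 and Sparc. Grap, an adaptor of growth factor signalling (-2.20), and Ldhb, the lactate dehydrogenase subunit of oxidative tissues (-2.13), followed. Ldhb reached 20 FPKM in 10 of 17 interferon-high and 57 of 73 interferon-low cells.

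The 2 untreated cells that met the rule came from plates 2 and 3 and were unlike each other. That of plate 2 had 5 rule genes, 4 border macrophage markers, Apoe at 47780 FPKM and Oas1a at 254 FPKM. That of plate 3 had 4 rule genes, no border macrophage marker, P2ry12 at 1403 FPKM and Tnf at 704 FPKM. Their means over the 108 interferon genes were 4.01 and 2.78, against a median of 1.21 in the other 52 untreated cells.

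Wells in the same plate column were compared as a check on neighbours. The 48 interferon-low cells that share a plate column with an interferon-high cell had a median of 1.85 over the 108 interferon genes and of 2 rule genes at 1 FPKM or more. The 25 in other columns had 1.36 and 1. Plate was not held equal in this split, and most cells in other columns came from plate 1. Interferon-low cells of plate 1 had the lowest means over the 108 genes, 1.19 at day 2 and 1.49 at day 4. Those of plates 2 and 3 had means of 1.70 to 2.07. How far plate enters the difference between columns was not tested. Of the interferon-high cells, 2 share a column with an interferon-high cell of more rule genes, both of day 4 with 3 rule genes each. In one of them Isg15 was at 30.4% and Ifit3 at 0.0222% of the neighbour, with Rtp4 at 31.3%, Usp18 at 6.81% and Oasl2 at 6.30%. In the other, Rtp4 was at 39%, Usp18 at 13.9% and Oasl2 at 267.6% of the neighbour, and Isg15 was at 0. Untreated wells were not part of that count. Column 4 of plate 2 held the untreated cell with 5 rule genes, with Isg15 at 112 and Usp18 at 397 FPKM. Its wells D4, G4 and H4 held interferon-high cells with exactly 3 rule genes each. Their Isg15 was at 45.2, 50.4 and 177 FPKM, and their Usp18 at 76.9, 43.4 and 91.4 FPKM. Wells A4, B4, E4 and F4 of that column held at most 0.693 FPKM of Isg15 and 2.36 FPKM of Usp18. Ifit3 was at 946 FPKM in the untreated cell and at 0.127, 0.138 and 107 FPKM in D4, G4 and H4. Rtp4 was at 367 FPKM against 0, 72.0 and 0.134 FPKM, and Oasl2 at 162 FPKM against 5.41, 0 and 0.0225 FPKM. Whether reads pass between wells was not tested.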

How the data were processed

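Single cells of 3 time points were compared by the rule given above. The authors deposited FPKM values in 1 table of 55364 genes by 144 cells. The submitters' processing notes name, without their settings, STAR 2.7.2b, featureCounts 1.6.1, cutadapt 1.16, Trim Galore 0.4.4 and Trimmomatic 0.36, with mm10 and GRCm38.p6. In each cell the deposited FPKM values times gene length add up to 1e+09, so a value is a share of that cell's reads. Mitochondrially encoded genes are not analysed here. The labels' protocols name Nextera XT libraries and no molecular identifiers, so amplified copies count as reads.

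Each cell's commonest product of FPKM and length was taken as 1 read. With M for 1e+06, this gave 0.190 to 18.9 M reads for the 90 cells after crush, and 2 of them had under 1 M. Within 0.01 read, a median of 59.4% of values were whole reads (49.1 to 69.0%), so no count model was fitted. Values were compared as the mean of log2(FPKM + 1), a pseudocount of 1 that understates changes of low genes. Where a symbol recurs (110 extra rows), its most abundant row was kept. Computation used Python 3.11.15, numpy 2.4.6, pandas 2.3.3 and scipy 1.17.1, and the procedure was tested on simulated data.

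The cells, the gene lists and the rule genes were chosen with earlier results of these data known. The genes named are the 8 rule genes, all measured interferon receptors, kinases and inhibitors, up to 6 members of each other interferon, MHC class I and chemokine list and up to 4 of each other list by size of difference, the 3 genes of the title, and the 20 highest and 10 lowest called genes on no list. Ifi27, B2m, Irf3, Mki67, Top2a, Tmem119, P2ry13 and Ifnb1 were named after their values were seen. Plates are treated as batches; whether they also hold different animals is not given in the labels. No p-value was computed. Time points sat in separate rows of each plate, so row and time point cannot be told apart. Some further genes are not reported here.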

Additional observations from a re-analysis of the deposited data

Results flagged for a closer look

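Chosen after seeing that the interferon-high cells of the 2 days differ, named genes were compared by the sign of their difference in each plate at day 2 and day 4. For 3 of 142 named genes outside the rule the sign was the same in all 3 plates at one day and the opposite in all 3 at the other. The same held for 318 of the 9676 measured genes (3.29%), so such changes were no more frequent among the named genes. None of these contrasts was tested, and the interferon-high cells per plate number 1 to 3 at day 2 and 2 to 6 at day 4.

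P2ry12 differed between the groups by 0.96 at day 4 and by -3.72 at day 2, a gap of 4.68. Gbp9, a guanylate-binding protein whose exons overlap Gbp4 and Gbp8, differed by 2.65 at day 4 and by -0.38 at day 2, a gap of 3.03. Pcna, the sliding clamp of DNA replication, differed by 2.58 at day 4 and by 0.09 at day 2, a gap of 2.50, with all 3 plates of day 2 below 0 (-0.40, -0.24 and -0.07) although the pooled value was not.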

How the results depend on the processing

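No paired analysis was possible because the results come from no test and plate numbers are not tied to animals by the labels. The 21 alternatives changed the counts of genes more than the signs of named genes: of 104 called genes named outside the rule, 92 kept their sign in every alternative. The calls without filter on low values and without cells under 1e+06 reads stayed within 1.5 times the counts above.

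Requiring 2 rule genes gave 27 interferon-high cells, 18 genes called lower and a median of 1.40 for the interferon genes outside the rule; requiring 4 gave 10 cells, 67 lower and 2.47. Rule levels of 10 and 40 FPKM gave medians of 1.49 and 1.97. Leaving out plate 1, 2 or 3 gave 146, 177 and 66 genes lower, and 2118 higher without plate 3, where fewer plates must concur. Day 2 alone gave 678 higher and 391 lower, day 4 alone 130 lower and a median of 1.61. Equal weight of plate and day gave 126 lower and 1.62. Detected genes as a covariate gave 459 higher, 255 lower and 1.35. A pseudocount of 0.1 gave 1689, 179 and 2.40, and one of 5 gave 554, 9 and 1.13. The log2 of mean FPKM gave 450, 910 and 1.52. No filter on low values gave a median of 1.31. Leaving out cells with 3 markers of another type gave 9 cells, 67 lower and 1.29. Subtracting the median of all genes gave 673, 161 and 1.44. Alternatives added after the data were seen were interferon-low cells with no rule gene (2.00), no cells with 3 border macrophage markers (counts within 1.5 times) and no interferon-high cell beside a richer interferon-high one in its column (55 lower). The last took no account of untreated wells. Where no construction is named, the cause was not tested.

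Signs turned at day 2 alone for Gbp9 (-0.38), Cxcl10 (-0.0226) and Itgam (-0.32), and at day 4 alone for Irf1 (0.56), Sparc (0.30), Slc2a5 (0.11), P2ry12 (0.96) and Cox7a2l (0.70). They turned with the log2 of mean FPKM for Junb (-0.27) and Jun (-0.17), and without cells of other types for Apoe (-0.52), F13a1 (-0.10) and Cox7a2l (0.16). With 17 interferon-high cells a share of 0 cells is not told from one of 17.6%, and Isg15 at 20 FPKM is a median of 78.2 reads.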
